A study of Homo sapiens with 6 samples.

Results

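The distal long arm of chromosome 3, bands 3q26 to 3q29, carries a dense run of housekeeping and signalling genes. Its messenger RNA is described here in libraries labelled as the gastric cancer line NCI-N87, which is of human origin and long established. The genes were taken by position: protein-coding genes lying wholly between the start of ECT2 and the end of LMLN (GRCh38 chromosome 3, positions 172750682 to 198043720, GENCODE release 29), with 2 or more libraries at 1 FPKM or above. FPKM is a fragment number scaled by exon length and by a size factor of the library, which here was not the plain read total. Of 153 protein-coding genes in the stretch, 94 were kept, out of 58735 genes in the files and 16046 that passed the same filter. The rule dropped 7 by name (NDUFB5, RPL39L, TP63, CLDN1, MUC20, MUC4 and RPL35A), and 52 stayed below the filter. The stretch was selected on measured values, namely the lower levels of its genes in the knockout libraries, so every comparison of its members with wild type is a description without a test. The difference between the knockout groups was not used in that choice and is tested.

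Total RNA of 6 libraries was sequenced, 2 from each of 3 groups. KO1 and KO2 are labelled as NCI-N87 cells with a knockout of KRT17, and WT is labelled as wild-type NCI-N87. KRT17 encodes keratin 17, an intermediate filament protein of stressed and stratified epithelia. The labels do not say whether KO1 and KO2 are clones, pools or guides, nor whether the 2 replicates of a group came from separate cultures, so p-values here reflect the scatter among these libraries alone and may measure technical variation.

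Distal 3q is among the regions most often gained in carcinomas, above all in squamous tumours. It holds the catalytic PI3-kinase gene PIK3CA, the lineage factor SOX2 and the cytokinesis regulator ECT2, which are the genes most often discussed as drivers there. Many of its other genes encode single subunits of large assemblies, such as the eIF4F and eIF2B translation factors, the proteasome, RNA polymerase II and the AP-2 clathrin adaptor, whose remaining subunits are encoded on other chromosomes.

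Depth recovered from the FPKM values was 17599759 to 22852340 reads per library. KRT17 itself stood at 2.29 and 2.40 FPKM in KO1, 11.3 and 10.4 FPKM in KO2, and 739 and 753 FPKM in WT. The knockout libraries also stood apart from WT in genes that define the line. ERBB2 and GRB7, which are amplified in NCI-N87, summed to 9.05 to 11.0 FPKM over the 4 knockout libraries, against 1627 and 1704 FPKM in WT, with neither at 0. The 5 epithelial markers (EPCAM, CDH1, KRT8, KRT18 and KRT19) summed to 316 to 385 FPKM in the knockout libraries and to 3634 and 3734 FPKM in WT, and KRT19 was at 0 in both KO2 libraries. The 5 fibroblast markers (COL1A1, COL1A2, DCN, LUM and PDGFRB) summed to 44.2 to 57.5 FPKM in the knockout libraries, against 0.745 and 0.855 FPKM in WT, while COL1A2 was at 0.0307 FPKM or less in every library. Leukocyte markers summed to 1.90 FPKM or less and endothelial markers to 0.746 FPKM or less in each library. These values therefore go against the label of one cell line in all groups for markers of lineage and amplicon, they move with every KO-to-WT difference given below, and their part in those differences was not tested. In bulk RNA, fewer cells that express a gene and less RNA of that gene per cell cannot be told apart.

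The start regions of 5 genes are shown because they belong to the members at both ends of the range and to one shared start. They run from 250 bases before to 50 bases after the RefSeq start of the gene (GRCh38.p14), 5′ to 3′ on the strand of the gene, with each CG, the dinucleotide that DNA methylation acts on, in capitals. P3H2 and GNB4 were the highest members relative to WT, EPHB3 and CAMK2N2 were the lowest that had an entry, and the FBXO45 window shares 205 bases with that of WDR53, which is read in the opposite direction.
P3H2, chr3:190122229-190122528, minus strand: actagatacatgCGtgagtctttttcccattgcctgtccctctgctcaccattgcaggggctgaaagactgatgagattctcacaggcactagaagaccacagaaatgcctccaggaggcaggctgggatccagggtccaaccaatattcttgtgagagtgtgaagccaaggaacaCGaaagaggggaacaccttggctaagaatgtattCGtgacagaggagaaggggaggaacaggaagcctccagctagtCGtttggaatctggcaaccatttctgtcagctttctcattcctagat
GNB4, chr3:179451421-179451720, minus strand: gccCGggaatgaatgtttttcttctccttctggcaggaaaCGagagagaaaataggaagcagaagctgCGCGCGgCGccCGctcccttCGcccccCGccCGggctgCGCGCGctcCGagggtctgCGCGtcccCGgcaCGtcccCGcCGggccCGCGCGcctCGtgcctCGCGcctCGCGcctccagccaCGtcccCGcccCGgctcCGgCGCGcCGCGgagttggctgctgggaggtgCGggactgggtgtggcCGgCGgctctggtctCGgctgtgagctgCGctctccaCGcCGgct
EPHB3, chr3:184561535-184561834, plus strand: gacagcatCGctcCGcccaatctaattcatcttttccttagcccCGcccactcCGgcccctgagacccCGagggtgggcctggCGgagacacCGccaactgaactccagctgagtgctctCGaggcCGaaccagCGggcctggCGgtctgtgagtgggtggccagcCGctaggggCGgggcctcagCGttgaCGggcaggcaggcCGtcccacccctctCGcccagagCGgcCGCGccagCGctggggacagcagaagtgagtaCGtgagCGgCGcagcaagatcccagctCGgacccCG
CAMK2N2, chr3:184261504-184261803, minus strand: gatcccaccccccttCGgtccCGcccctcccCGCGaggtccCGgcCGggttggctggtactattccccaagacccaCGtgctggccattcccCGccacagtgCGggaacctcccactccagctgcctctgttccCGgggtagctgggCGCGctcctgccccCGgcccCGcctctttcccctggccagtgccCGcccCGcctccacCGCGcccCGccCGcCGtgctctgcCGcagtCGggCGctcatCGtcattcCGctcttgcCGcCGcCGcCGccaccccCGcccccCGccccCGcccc
FBXO45, chr3:196568410-196568709, plus strand: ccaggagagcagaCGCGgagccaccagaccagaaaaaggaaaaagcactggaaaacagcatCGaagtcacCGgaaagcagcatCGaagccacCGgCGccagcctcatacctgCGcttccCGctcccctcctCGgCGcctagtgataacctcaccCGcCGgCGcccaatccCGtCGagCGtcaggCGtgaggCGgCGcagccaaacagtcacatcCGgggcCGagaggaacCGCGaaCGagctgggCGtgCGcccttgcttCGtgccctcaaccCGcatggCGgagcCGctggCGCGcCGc

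Both highest members had unlike windows. P3H2 had 4 CG, fewer than nearly all windows, with 3.56% of the 9639 windows of tested protein-coding genes below it. GNB4 had 43 CG, with 91.2% of those windows below it. EPHB3 and CAMK2N2 had windows of ordinary composition, with 26 and 33 CG, and the shared FBXO45 window had 34. RTP4, PLAAT1, SOX2 and ST6GAL1, which also kept a smaller share of the WT level than CAMK2N2, had 4, 50, 20 and 24 CG. CG was searched as these 2 letters, which read the same on both strands. It occurred in 83 of the 84 members with a RefSeq window (98.8%) and in 95.8% of all 27305 windows of that length. The median was 26.5 CG over the 84 members and 26 CG over the tested windows, and GC content had medians of 65.7% and 65.3%. Across the 84 members the CG number and the log2 difference from WT had a Spearman rho of 0.04 in KO1 and 0.07 in KO2, given as a description across genes of the same libraries. ACTL6A, ATP11B, LAMP3, MAP6D1, EHHADH, SENP2, ETV5, CCDC50, DYNLT2B and IQCG had no entry.

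The level of the stretch as a whole was well below WT in the 4 knockout libraries. The 94 members had a median of 4.61 and 4.48 FPKM in KO1 and of 4.38 and 4.08 FPKM in KO2, against 9.80 and 9.70 FPKM in WT. In the same libraries the tested protein-coding genes had medians of 6.85 and 6.81 FPKM in KO1, 6.62 and 6.61 FPKM in KO2, and 6.86 and 6.91 FPKM in WT. The members thus lay below the median protein-coding gene in each knockout library and above it in each WT library. Summed over members, the values were 788 and 778 FPKM in KO1, 775 and 769 FPKM in KO2, and 1896 and 1902 FPKM in WT. The 2 libraries of a group nearly coincided in that sum, and no knockout library came near WT.

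**Figure D1:**
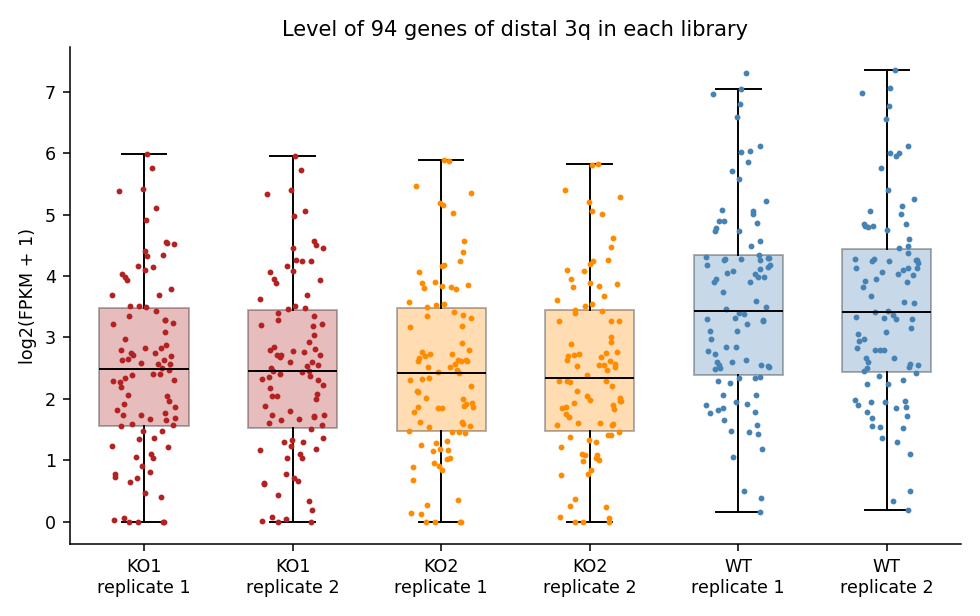
Levels of the 94 distal 3q genes as log2(FPKM + 1) in the 2 libraries each of KO1, KO2 and WT; points are genes, boxes give the quartiles and the median, and whiskers reach the farthest value within 1.5 box lengths. The boxes of all 4 knockout libraries sit about one log2 unit below both WT boxes (median 4.08 to 4.61 FPKM in the knockout libraries, 9.70 and 9.80 FPKM in WT).

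Gene by gene, limma on log2(FPKM + 1) with Benjamini-Hochberg adjustment over all 16046 genes put 81 of 94 members lower and 7 higher in KO1, with 6 not called at 0.05. The same fit put 84 lower and 7 higher in KO2, with 3 not called. The stretch was chosen on these comparisons with WT, so the calls here and below describe its members and do not test them. Calls were common in these libraries: over all genes tested, 38.6% were lower and 39.3% higher in KO1, and 39.8% were lower and 39.1% higher in KO2. In 82 members all 4 knockout libraries lay below both WT libraries, and in 6 all 4 lay above them, where 40% and 39.9% of all genes did so. Both knockout groups are set against the same WT libraries. The median member difference was -1.07 in KO1 (quartiles -1.55 and -0.75) and -1.16 in KO2 (quartiles -1.57 and -0.71), while the median of all genes was 0.02 in KO1 and 0.01 in KO2. Differences are of log2(FPKM + 1), a scale on which changes of weakly expressed genes look smaller than they are.

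As a percentage of the WT level (ratio of group means), the median member stood at 39.9% in KO1 and 39.5% in KO2. The middle of the members was narrow, with quartiles of 29.4% and 52.8% in KO1 and of 27.6% and 55.8% in KO2. Between 25% and 50% of WT lay 47 members in KO1 (50%) and 42 in KO2 (44.7%), while 11.0% and 11.7% of all tested protein-coding genes with reads in WT fell in that band. A further 8 members in KO1 and 9 in KO2 were under 10% of WT. The rest of chromosome 3 had a median of 132.6% of WT in KO1 and 131.4% in KO2 over 552 genes with reads in WT. It was not uniform, since the 59 tested genes in the 25 Mb before ECT2 had median log2 differences of -0.54 and -0.63.

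**Figure D2:**
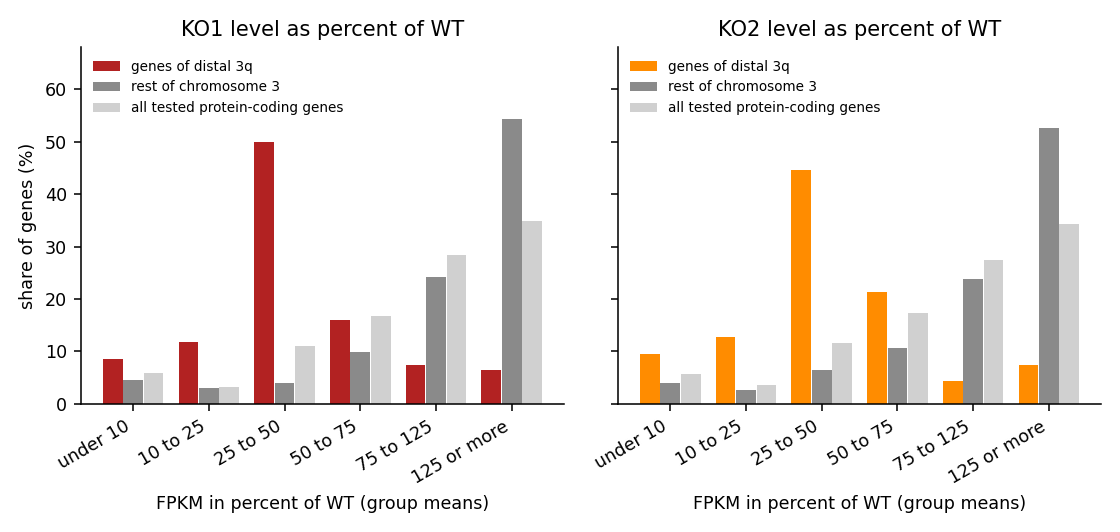
Share of genes (y axis, percent) by FPKM level in percent of WT (x axis, ratio of group means), for KO1 on the left and KO2 on the right; coloured bars are the 94 distal 3q genes, dark grey the rest of chromosome 3 and light grey all tested protein-coding genes. The highest coloured bar is 25 to 50% of WT in both panels (50% of members in KO1, 44.7% in KO2).

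The filter shapes part of this picture. In all 6 libraries, 78 of 94 members reached 1 FPKM. Another 11 passed only through WT (SOX2, LAMP3, MAP6D1, CAMK2N2, EPHB3, EHHADH, CRYGS, ST6GAL1, RTP4, PLAAT1 and IQCG), and 3 only through the knockout libraries (GNB4, P3H2 and TM4SF19), and these 14 had to differ between the groups. Nearest to the limit inside it were TM4SF19, DYNLT2B and RTP4, with second-highest values of 1.02, 1.55 and 1.70 FPKM. Nearest outside were SLC51A, KCNMB3 and NAALADL2, with 0.954, 0.903 and 0.857 FPKM. The 52 genes below the filter summed to 1.84 FPKM in KO1, 2.76 FPKM in KO2 and 5.71 FPKM in WT, and 14 of them had 0 reads in every library.

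Along the chromosome, the difference was spread over the whole stretch and not over one cluster. In bins of 5 Mb from the start of ECT2, the median difference in KO1 and in KO2 was -1.05 and -1.15 over the first 2 genes (ECT2 and TBL1XR1), and -0.95 and -0.99 over the next 12. It was -1.28 and -1.35 over the 41 genes from 10 to 15 Mb, the densest bin, which runs from ATP11B to BCL6. The 4 genes from 15 to 20 Mb had -0.53 and -0.38, and P3H2 and IL1RAP lie there. The 32 genes from 20 to 25 Mb had -1.13 and -1.16, and the last 3 had -0.76 and -0.53. The longest unbroken run of members with all 4 knockout libraries below both WT libraries counted 26 genes, from YEATS2 to TRA2B. The 13 most distal members, from PAK2 to LMLN, formed another run.

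The inner edge was not sharp. Of the 5 tested genes just before ECT2, NCEH1 stood at 76.5% of WT in KO1 and 54.8% in KO2, and FNDC3B at 62.2% and 51.9%. TNFSF10, which encodes the death ligand TRAIL, had 0 and 0.0127 FPKM in KO1 and 0 in both KO2 libraries, against 6.24 and 6.19 FPKM in WT. TNIK had 0.00503 FPKM in 1 KO1 library and 0 in the other 3 knockout libraries, against 2.64 and 2.59 FPKM in WT. PLD1 was higher, at 164% of WT in KO1 and 172% in KO2. Over the 25 Mb before ECT2, 41 of 59 tested genes were lower and 12 higher in KO1, and 43 were lower and 12 higher in KO2, with medians of -0.54 and -0.63. Over the remaining 499 genes nearer to the other end of the chromosome, 116 were lower and 322 higher in KO1, and 128 were lower and 309 higher in KO2, with medians of 0.42 and 0.41.

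**Figure D3:**
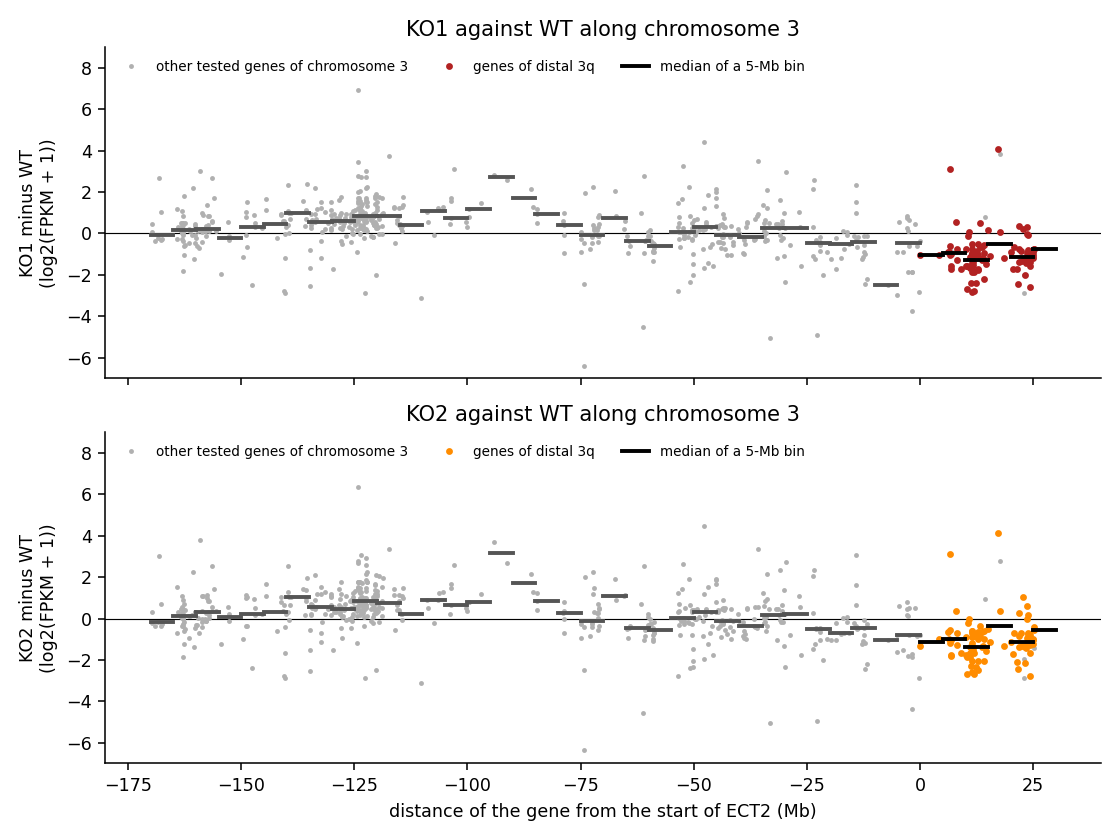
Difference from WT on the log2(FPKM + 1) scale (y axis) of tested protein-coding genes of chromosome 3 by distance from the start of ECT2 in Mb (x axis), for KO1 above and KO2 below; coloured points are the 94 distal 3q genes, grey points other genes, and horizontal bars medians of 5-Mb bins. All 6 bins right of ECT2 have medians below 0 in both panels, from -1.28 to -0.53 in KO1 and from -1.35 to -0.38 in KO2.

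Translation and RNA handling was the largest role list together with membrane traffic, and all 14 of its members were lower in both knockout groups, with medians of 40.4% of WT in KO1 and 41.6% in KO2. The lists and their members were put together with earlier results of these data known, so their counts only describe. Over all 94 members, 86.2% were lower in KO1 and 89.4% in KO2. The counts of each list are to be read beside these shares and give no result about its role. EIF4G1, the scaffold of the cap-binding complex eIF4F, had 53.2 and 52.1 FPKM in KO1, 57.2 and 55.7 FPKM in KO2, and 158 and 162 FPKM in WT, the highest WT level among the members. EIF4A2, an RNA helicase of the same complex, had 33.3 and 32.4 FPKM in KO1, 31.5 and 31.3 FPKM in KO2, and 64.9 and 63.4 FPKM in WT. No knockout library came near WT for either gene, and EIF4A2 has 5 named pseudogenes with which reads may be shared. EIF2B5, the catalytic subunit of the exchange factor eIF2B, was the lowest of the general initiation factors, at 3.92 and 3.66 FPKM in KO1, 3.60 and 3.02 FPKM in KO2, and 16.6 FPKM in both WT libraries. MRPL47, of the large mitochondrial ribosomal subunit, stood at 29.4% of WT in KO1 and 27.7% in KO2, and POLR2H, a subunit shared by the nuclear RNA polymerases, at 36.8% in both. FXR1, a relative of the fragile X protein, and TRA2B, a splicing factor, kept more of their level, with 56.8% and 62.6% of WT in KO1 and 58.6% and 52.9% in KO2.

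Protein turnover genes were lower in 9 of 10 cases in both groups, with medians of 44.8% of WT in each. PSMD2, a large subunit of the proteasome base, had 40.6 and 39.2 FPKM in KO1, 43.4 and 41.0 FPKM in KO2, and 123 and 125 FPKM in WT. The deubiquitinase USP13 stood at 44.0% of WT in KO1 and 43.9% in KO2, the SUMO proteases SENP2 and SENP5 at 44.9% and 40.2% in KO1 and at 45.8% and 40.7% in KO2. KLHL24, a substrate adaptor of a ubiquitin ligase that acts on keratins, was the exception, with 3.20 and 3.14 FPKM in KO1, 3.04 and 2.80 FPKM in KO2, and 3.16 and 2.86 FPKM in WT. Its groups overlapped, and it was not called in either comparison.

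Of 10 genes of DNA replication, division and chromatin, 9 were lower in both groups, with medians of 44.2% of WT in KO1 and 38.5% in KO2. ECT2, the exchange factor that activates RhoA at cytokinesis, had 20.2 and 20.9 FPKM in KO1, 17.0 and 17.4 FPKM in KO2, and 46.7 and 41.2 FPKM in WT. ACTL6A, an actin-related subunit of BAF chromatin remodellers, had 17.0 FPKM in both KO1 libraries, 13.9 and 15.8 FPKM in KO2, and 51.3 and 53.3 FPKM in WT. YEATS2, a reader of acylated histones, stood at 27.9% of WT in KO1 and 26.9% in KO2, while RFC4, of the clamp loader of DNA replication, kept 66.7% and 64.6%. The ubiquitin ligase of DNA breaks RNF168 had 39.3% of WT in KO1 and 37.9% in KO2. CEP19, a centrosomal gene, was not called in either comparison, at 1.56 and 1.46 FPKM in KO1, 1.76 and 2.06 FPKM in KO2, and 1.75 and 1.46 FPKM in WT.

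All 12 genes of the list of mitochondria and metabolism were lower in both groups, with medians of 32.4% of WT in KO1 and 31.5% in KO2. The list is broad and also holds IQCG and LMLN. The fusion factors OPA1 and MFN1, of the inner and the outer mitochondrial membrane, kept more than the median of the list, with 62.2% and 64.3% of WT in KO1 and 59.1% and 66.0% in KO2. MCCC1, a subunit of the leucine-degrading methylcrotonyl-CoA carboxylase, had 3.86 and 4.09 FPKM in KO1, 3.35 and 2.67 FPKM in KO2, and 13.9 and 13.2 FPKM in WT. EHHADH, an enzyme of peroxisomal fatty acid oxidation, was far lower, with 0.648 and 0.543 FPKM in KO1, 0.597 and 0.699 FPKM in KO2, and 7.62 and 7.34 FPKM in WT. PLAAT1, a phospholipid-modifying enzyme, had 0 reads in all 4 knockout libraries and 2.61 and 1.96 FPKM in WT, so that it was at least 20.5-fold lower in KO1 and at least 17.0-fold lower in KO2, against a floor of 3 reads per library. Such floors cover counting error only.

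Membrane traffic and transport had 13 of 14 genes lower in both groups, with medians of 36.3% of WT in KO1 and 34.1% in KO2. TFRC, the transferrin receptor for iron uptake, had 41.7 and 41.1 FPKM in KO1, 35.3 and 35.9 FPKM in KO2, and 95.3 and 93.4 FPKM in WT. AP2M1, the cargo-binding chain of the AP-2 adaptor through which that receptor is taken up, had 62.3 and 60.8 FPKM in KO1, 58.1 and 55.0 FPKM in KO2, and 130 and 132 FPKM in WT. Several genes of this list were much lower than the typical member. MELTF, a membrane-bound transferrin relative, had 2.39 and 2.29 FPKM in KO1, 2.10 and 1.66 FPKM in KO2, and 18.2 and 19.8 FPKM in WT. ATP13A3, a polyamine transporter, had 4.80 to 4.96 FPKM in the 4 knockout libraries and 31.3 FPKM in both WT libraries, and the multidrug transporter ABCC5 had 2.34 to 2.90 FPKM, against 17.0 and 17.5 FPKM in WT. LAMP3, a lysosomal membrane protein of dendritic cells and stressed epithelia, had 0.0346 FPKM in 1 KO1 library and 0 in the other 3 knockout libraries, against 5.07 and 5.98 FPKM in WT.

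Among kinases, receptors and signalling genes, 9 of 12 were lower in both groups, and 2 were higher in KO1 and 3 in KO2. PIK3CA had 1.99 and 1.97 FPKM in KO1, 1.95 and 1.74 FPKM in KO2, and 4.77 and 4.35 FPKM in WT. The Wnt signal transducer DVL3 stood at 35.9% of WT in KO1 and 37.1% in KO2, the kinase PAK2 at 43.2% and 40.4%, and the tyrosine kinase TNK2 at 22.3% and 19.3%. EPHB3, an ephrin receptor that sorts cells along the intestinal crypt, had 0.0189 and 0.00971 FPKM in KO1, 0.101 and 0.0594 FPKM in KO2, and 5.82 and 6.10 FPKM in WT. In KO1 these values rest on 3 reads over both libraries, against 1078 in WT. The inhibitor of the CaMKII kinase CAMK2N2, which is in no list, had 0.378 and 0.646 FPKM in KO1, 0.787 and 0.791 FPKM in KO2, and 9.52 and 9.75 FPKM in WT.

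Of the 6 genes listed as transcription factors (ZMAT3, SOX2, MAGEF1, ETV5, BCL6 and HES1), 4 were lower and 1 was higher in KO1. In KO2, all 6 were lower. The list is wider than its name, since ZMAT3 and MAGEF1 are not established transcription factors. SOX2 had 0 reads in KO1, 0 and 0.0429 FPKM in KO2, and 1.97 and 2.64 FPKM in WT. HES1, a Notch target, had 16.7 and 18.0 FPKM in KO1, 13.1 and 13.2 FPKM in KO2, and 57.0 and 60.6 FPKM in WT. BCL6, a repressor best known from germinal centre B cells, had 2.76 and 3.13 FPKM in KO1, 1.37 and 1.61 FPKM in KO2, and 2.51 and 2.46 FPKM in WT, so that KO1 lay above WT and KO2 below it, though KO1 was not called. ETV5, an ETS factor induced by growth factor signalling, had the same order, with 6.10 and 5.90 FPKM in KO1, 2.61 and 2.96 FPKM in KO2, and 4.06 and 3.75 FPKM in WT.

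Of the 7 genes of glycosylation and matrix enzymes, 5 were lower in KO1 and 6 in KO2, and 1 was higher in both. ST6GAL1, which adds sialic acid to N-glycans, had 0.0468 and 0.0577 FPKM in KO1, 0.0892 and 0.200 FPKM in KO2, and 3.89 and 3.75 FPKM in WT. ALG3, a mannosyltransferase of N-glycan assembly, stood at 58.3% of WT in KO1 and 59.5% in KO2. The higher one was P3H2, a prolyl 3-hydroxylase of collagens (ENSG00000090530, positions 189956728 to 190122437), with 22.1 and 21.8 FPKM in KO1, 22.7 and 23.6 FPKM in KO2, and 0.306 and 0.418 FPKM in WT. Its level came to 60.7-fold of WT in KO1 and 64.0-fold in KO2.

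GNB4, a beta subunit of heterotrimeric G proteins (ENSG00000114450, positions 179396089 to 179451590), was the other member far higher in the knockout libraries. It had 8.68 and 9.21 FPKM in KO1, 9.29 and 8.62 FPKM in KO2, and 0.118 and 0.147 FPKM in WT. Its chromosomal neighbours did not share this, since MFN1 before it was at 64.3% and 66.0% of WT and ACTL6A after it at 32.5% and 28.4%. The remaining members at the high end differed far less from WT. PPP1R2, an inhibitor of protein phosphatase 1, stood at 117% of WT in KO1 and 212% in KO2, and TTC14 at 158% and 136%. FAM43A stood at 134% and 125%. TM4SF19, at 1.05 FPKM or less in every library, is close to the filter. IL1RAP, the co-receptor of interleukin 1, had 1.32 and 1.26 FPKM in KO1, 1.71 and 2.03 FPKM in KO2, and 1.28 and 1.14 FPKM in WT. DYNLT2B had overlapping groups between 1.06 and 1.57 FPKM. The sign of the small differences of KLHL24, CEP19, DYNLT2B and, in KO1, IL1RAP turned with the scaling of the libraries, and so no direction is given for them there.

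Genes with neighbouring starts were not always alike in level relative to WT. In 6 pairs of members the 5′ ends lie within 1000 bases on opposite strands and point away from each other. The pair with the largest difference was EHHADH and MAP3K13, 951 bases apart, with EHHADH at 7.96% of WT in KO1 and 8.66% in KO2 and the stress kinase gene MAP3K13 at 38.9% and 38.2%. IQCG and LMLN, 58 bases apart, were close on the log2(FPKM + 1) scale in both groups, with differences of -0.76 and -0.74 in KO1 and of -0.53 and -0.41 in KO2. In percent of WT they were less close, at 36.7% and 45.9% in KO1 and at 52.4% and 66.7% in KO2. ALG3 and EEF1AKMT4, a methyltransferase of elongation factor eEF1A, lie 102 bases apart and were close in KO2 and less so in KO1. EEF1AKMT4 stood at 39.5% of WT in KO1 and 59.8% in KO2, and ALG3 at 58.3% and 59.5%. WDR53 and FBXO45 overlap at their 5′ ends, with starts 63 bases apart, and their shared window is printed above. These genes stood at 52.6% and 44.7% of WT in KO1 and at 55.4% and 39.9% in KO2. The sources used here do not give whether reads were counted by strand, and reads of the 70 members that overlap another annotated gene, 33 of them a protein-coding one, may therefore be divided between the genes.

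Partner subunits encoded elsewhere are given beside the 3q subunits of the same complexes. The 3q subunits belong to a stretch chosen for lower levels in the knockout libraries. Their distance from the partners follows from that choice and is described only. Across 17 complexes and families, the 20 distal 3q subunits had a median difference of -1.11 in KO1 and -1.17 in KO2. The 64 tested partners had medians of -0.02 and -0.08, or 98.0% of WT in KO1 and 93.9% in KO2. In KO1, limma called 30 partners lower (46.9%) and 24 higher (37.5%), with 10 not called. In KO2 it called 31 lower (48.4%) and 23 higher (35.9%), with 10 not called. The like background is the protein-coding part of the gene set. There, calls of lower made up 44.4% in KO1 and 45.7% in KO2, and calls of higher 39.7% and 39.4%. The partner shares lay near these. With the libraries scaled by their read totals alone, 26 partners were lower and 32 higher in KO1, and 25 were lower and 29 higher in KO2. With voom, 27 were lower and 32 higher in KO1, and 26 were lower and 30 higher in KO2.

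In eIF2B, EIF2B5 stood at 22.8% of WT in KO1 and 19.9% in KO2, while its 4 partners lay between 66.0% and 120% in KO1 and between 60.7% and 130% in KO2. In the proteasome base, PSMD2 stood at 32.2% and 34.0%, and the lowest of its 9 partners was PSMD1, at 47.4% and 51.4%. RNA polymerase II had POLR2H at 36.8% of WT in both groups, and the closest of its 11 partners was POLR2K, at 39.0% and 42.7%, while the catalytic subunit POLR2A was at 82.5% and 87.1%. In the IGF2BP family of mRNA-binding proteins the genes lay on both sides of WT: IGF2BP2 of 3q had 6.33 and 5.99 FPKM in KO1, 2.98 and 3.63 FPKM in KO2, and 22.6 and 23.2 FPKM in WT. IGF2BP1 of chromosome 17 had 11.6 and 11.1 FPKM in KO1, 16.4 and 17.0 FPKM in KO2, and 0 in both WT libraries. TBL1XR1 of the NCoR corepressor was at 45.4% and 47.6% of WT, and its X-linked paralogue TBL1X at 325% and 282%.

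Some partners were also well below WT, and a few were below the 3q gene itself. PAK1, of chromosome 11, was at 33.0% of WT in KO1 and 29.8% in KO2, below PAK2 in both groups. MCCC2, of chromosome 5, which pairs with MCCC1 in one enzyme, was at 42.6% and 40.9%, above MCCC1 at 29.3% and 22.2%. FMR1 was at 33.0% and 36.6%, below FXR1. PIK3R1, the regulatory subunit that binds PIK3CA, had 0.0123 to 0.0597 FPKM in the knockout libraries and 5.10 and 5.26 FPKM in WT. In BAF remodellers, SMARCA4, SMARCB1 and SMARCD2 were at 41.9%, 40.0% and 42.6% of WT in KO1 and at 50.0%, 40.8% and 57.9% in KO2, against 32.5% and 28.4% for ACTL6A.

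**Figure D4:**
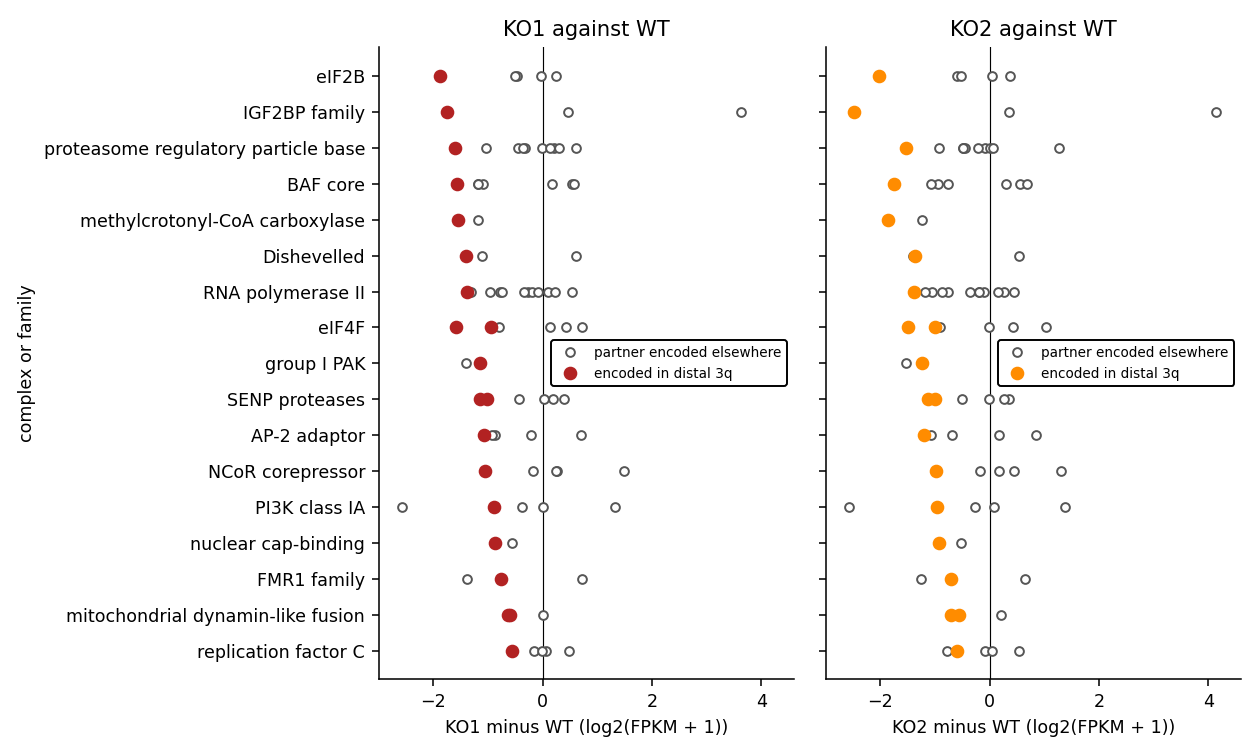
Difference from WT on the log2(FPKM + 1) scale (x axis) of subunits or paralogues in 17 complexes and families (y axis), for KO1 on the left and KO2 on the right; filled points are encoded in distal 3q and open points elsewhere. All 20 filled points lie left of 0 in both panels, and the 64 open points lie on both sides of it (medians -0.02 in KO1 and -0.08 in KO2). The filled points belong to the stretch chosen for lower levels in the knockout libraries.

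The knockout groups differed little from each other over the stretch. KO2 minus KO1 had a median of -0.03 over the 94 members. Limma with Benjamini-Hochberg adjustment over all 16046 genes called 12 members lower and 5 higher in KO2 (12.8% and 5.32%). Of all genes tested, 15% were lower and 11.2% higher, and of the protein-coding ones, the like background, 17.7% and 13.1%. An unadjusted p under 0.05 was reached by 30 members. The balance of the calls moved with the scaling, over the members as over all genes. Members had 9 lower and 7 higher by read totals, 9 lower and 6 higher after quantile normalization, and 15 each way with voom. Over all genes tested, 2403 were lower and 1800 higher as reported, 2120 lower and 2087 higher by read totals, 2130 lower and 2191 higher after quantile normalization, and 2702 lower and 2725 higher with voom. The 77 members not called are not thereby shown to be alike in KO2 and KO1.

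The called genes that held best across alternative fits came from several roles. PPP1R2 had 39.7 and 37.8 FPKM in KO2 and 21.8 and 20.9 FPKM in KO1, and it was higher in KO2 by 0.83 ± 0.04 on the log2 scale (SE, limma adjusted p = 0.00058). It has 6 named pseudogenes, so its reads are uncertain. ETV5 was lower in KO2, at 2.61 and 2.96 FPKM in KO2 and 6.10 and 5.90 FPKM in KO1, a difference of -0.89 ± 0.07 (limma adjusted p = 0.00164). IGF2BP2 differed by -0.74 ± 0.08 (limma adjusted p = 0.00366) and BCL6 by -0.66 ± 0.08 (limma adjusted p = 0.00514). HES1 and LIPH, a lipase that makes the lipid signal lysophosphatidic acid, each differed by -0.37 ± 0.05 (limma adjusted p = 0.0061 and 0.00574). LIPH had 1.47 and 1.46 FPKM in KO2 and 2.17 and 2.20 FPKM in KO1. TFRC was lower in KO2 by a small but even step of -0.21 ± 0.02 (limma adjusted p = 0.0047), and TRA2B by -0.23 ± 0.03 (limma adjusted p = 0.00677).

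The first 7 of these genes kept their call in each of 13 alternative fits, and TRA2B lost it once, without replicate 1 of KO1 (limma adjusted p = 0.0547). The other 9 calls held less well. EEF1AKMT4 (0.43), LMLN (0.33), IL1RAP (0.32) and MAGEF1 (0.17) were higher in KO2, and ECT2 (-0.25), ATP11B (-0.18), DCUN1D1 (-0.18), FBXO45 (-0.14) and NCBP2AS2 (-0.13) were lower. Each of these 9 was lost in 4 to 6 of the 6 fits that left out a single library, with limma adjusted p from 0.0215 to 0.196 over those fits. Leaving out 1 library at a time left 6 to 9 members lower and 1 or 2 higher.

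**Figure D5:**
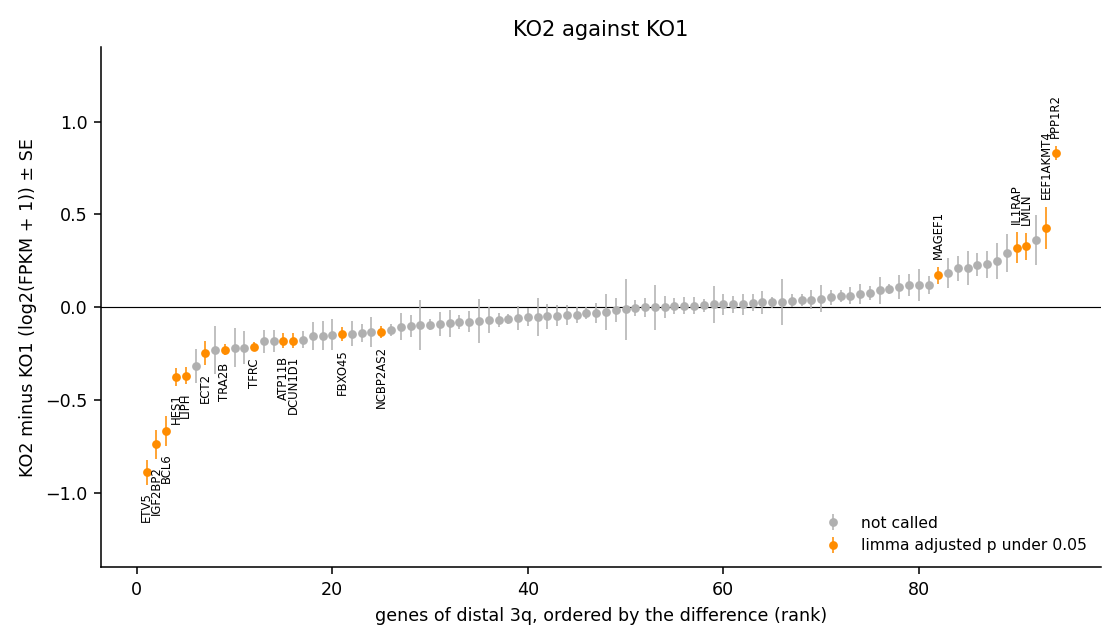
KO2 minus KO1 on the log2(FPKM + 1) scale (y axis, points with SE bars) for the 94 distal 3q genes in order of the difference (x axis, rank). Orange points are the 12 lower and 5 higher genes with a limma adjusted p under 0.05, from ETV5 at -0.89 to PPP1R2 at 0.83, and most of the 77 grey points sit near 0.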

How the data were processed

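The 6 deposited files hold FPKM values per gene, as made by the authors. The aligner HISAT2 2.0.5, the counter featureCounts 1.5.0-p3 and the build hg38 are named in the submitters' processing notes. Strandedness, multiply mapping reads and the annotation used are not described there. All gene IDs matched GENCODE release 29. FPKM multiplied by union exon length gave whole reads for 100% of values (tolerance 0.1 of a read), which supplied the depth, the floor of 3 reads and the read-based alternatives. The size factor in the deposited values, as a ratio to the recovered read total, was 0.945 and 0.936 in WT. It was 1.03 and 1.04 in KO1 and 1.05 in both KO2 libraries. The deposited scaling therefore sets knockout values lower relative to WT than scaling by read totals does.

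Genes with at least 1 FPKM in 2 libraries were kept, and limma 3.58.1 in R 4.3.3 was run on log2(FPKM + 1) over the 6 libraries, with a mean per group and a trended variance. Calls used Benjamini-Hochberg adjusted p under 0.05. Named genes are role and partner list members, the 8 lowest and 8 highest against WT, the 6 most different called genes each way between KO2 and KO1, and genes at the edges. The members and lists were chosen with earlier results of these data known. Replicate numbers did not pair the libraries (correlations of deviations 0.02 for KO1 and WT, -0.004 for KO2 and WT and -0.04 for KO2 and KO1). Start regions come from RefSeq (GRCh38.p14, 84 of 94 members matched).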

Additional observations from a re-analysis of the deposited data

Results flagged for a closer look

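Of the 94 members, all of them tested for KO2 minus KO1, 17 were called (limma, Benjamini-Hochberg adjusted over 16046 genes): 12.8% lower and 5.32% higher in KO2, where 15% and 11.2% of all genes were. They are listed because the difference between the knockout groups passed that test. Lower in KO2 were ETV5 (-0.89), IGF2BP2 (-0.74), BCL6 (-0.66), HES1 (-0.37), LIPH (-0.37), ECT2 (-0.25), TRA2B (-0.23), TFRC (-0.21), ATP11B (-0.18), DCUN1D1 (-0.18), FBXO45 (-0.14) and NCBP2AS2 (-0.13), as log2 differences of KO2 minus KO1. Higher in KO2 were PPP1R2 (0.83), EEF1AKMT4 (0.43), LMLN (0.33), IL1RAP (0.32) and MAGEF1 (0.17). All but ETV5, IGF2BP2, BCL6, HES1, LIPH, TFRC, TRA2B and PPP1R2 were lost in 4 to 6 of the 6 fits that left out a single library, and TRA2B was lost in 1. ETV5 and BCL6 lay on opposite sides of WT, with KO1 above it and KO2 below it, though BCL6 in KO1 was not called against WT.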

How the results depend on the processing

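Counts of members called between the knockout groups depended on the fit. Against 5 higher and 12 lower in KO2 as reported, the higher count was 2 with the knockout libraries alone, 1 without a filter, 3 with a pseudocount of 0.1 and 15 with voom on recovered reads, and leaving out 1 library gave 1 to 2 higher and 6 to 9 lower, with the spread of a lone library taken from the other groups. The replicate block, for numbers that do not pair the libraries, gave 1 higher and 7 lower. The cause of these shifts was not tested.

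The median difference from WT stayed below 0 in all alternatives run. It was -0.94 in KO1 and -1.03 in KO2 when scaled by read totals, -1.29 and -1.31 with a pseudocount of 0.1, -1.03 and -1.10 after quantile normalization, and -1.19 in KO1 with voom. Leaving out 1 library gave -1.19 to -1.15 in KO2. The median of all genes was 0.02 in KO1 and 0.01 in KO2 as reported. It stood at 0.13 and 0.14 when scaled by read totals, and at 0.16 and 0.17 with voom. Relative to these medians, the members lay at -1.07 and -1.16 by read totals, and at -1.35 in both groups with voom. Partner counts, added as an alternative after the data were seen, stayed within 1.5 times of those reported in every fit. The calls against WT of TM4SF19 in KO1, B3GNT5 and EEF1AKMT4 in KO2 and FAM43A in both were lost in at least 1 fit. Depth limits SOX2, LAMP3, RTP4, PLAAT1 and EPHB3, which had 14 reads or fewer in each knockout group.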

Other observations

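The same stretch holds 334 annotated genes that do not encode proteins, of which 49 passed the filter. In KO1, 25 of these were lower, 5 higher and 19 not called, and in KO2, 24 were lower, 7 higher and 18 not called. Over all genes tested, 38.6% were lower and 39.3% higher in KO1, and 39.8% lower and 39.1% higher in KO2. MELTF-AS1, an antisense transcript of MELTF, had 1.58 and 1.35 FPKM in KO1, 1.66 and 0.898 FPKM in KO2, and 6.63 and 7.36 FPKM in WT, next to the low MELTF. MUC20-OT1 had 0.667 and 0.762 FPKM in KO1, 1.13 and 1.06 FPKM in KO2, and 4.72 and 4.29 FPKM in WT. The pseudogene SDHAP1 had 4.53 and 4.59 FPKM in KO1, 4.21 and 4.10 FPKM in KO2, and 12.0 and 12.5 FPKM in WT, and its reads may be shared with SDHA and other copies. Others went the opposite way. P3H2-AS1, which overlaps P3H2 on the other strand, had 1.35 and 2.17 FPKM in KO1, 2.59 and 3.54 FPKM in KO2, and 0 in both WT libraries. LINC00887 had 1.90 and 1.64 FPKM in KO1, 2.79 and 3.51 FPKM in KO2, and 0.703 and 0.629 FPKM in WT. Between KO2 and KO1, limma called 1 of the 49 lower and 4 higher. Of all genes tested, 15% were lower and 11.2% higher, and of the protein-coding ones 17.7% and 13.1%. Tested genes that do not encode proteins therefore had smaller shares than all genes, here and against WT. The shares of all genes are thus not a like background for the 49. These genes were chosen after their values were seen, and many of the 49 overlap or copy a protein-coding gene, so their values are uncertain where the strand of counting is not given.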
